A study of Mus musculus with 12 samples.

Results

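To follow thyroid hormone signalling in the rods and retina of *Abca4* knockout mice, 9 genes of the pathway were chosen from genotype differences in these same libraries and from their known roles. They are the transporter gene Slco1c1, the deiodinase genes Dio2 and Dio3, the receptor genes Thra, Thrb and Rxrg, the corepressor gene Ncor1 and the target genes Hr and Klf9. They were found by symbol, as 9 of 56748 rows of the count table, and each is present in 1 row there and in the table of TPM, a transcript level per length. The choice used the genotype comparison in retina for Dio2 and the genotype comparison in rods for Hr. All genotype values of the 9 genes are therefore given as a description, with no test, whereas the comparison of rods with whole retina was not used in the choice and was tested. Dio2 and Hr are described without a test there too, since 1 side of that comparison holds values that chose them.

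The series holds 12 libraries in 4 groups of 3, from mice aged 2 months. The Abca4Ko mice were RiboTag; Abca4-/-; i75-Rod-Cre, and the littermate controls were RiboTag; i75-Rod-Cre with Abca4 intact. Both genotypes thus carried RiboTag, a conditional epitope tag on a ribosomal protein, and a Cre driven in rods by a rhodopsin promoter, so that the tag marks rod ribosomes. The mice were perfused with cycloheximide, an inhibitor that stalls translating ribosomes. RNA was taken from the retinal lysate (retina) and from the ribosomes pulled down from it (rod TRAP, translating ribosome affinity purification). The labels do not say whether the 3 libraries of a group came from separate animals, so p-values measure the spread between these libraries.

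Thyroid hormone reaches neural tissue mainly as the prohormone T4, carried across membranes by transporters. Type 2 deiodinase (Dio2) converts T4 to the active hormone T3 inside cells, and type 3 deiodinase (Dio3) inactivates both. T3 binds the nuclear receptors encoded by Thra and Thrb, which pair with retinoid X receptors on DNA, recruit corepressors such as Ncor1 when no hormone is bound, and exchange them for coactivators when it is. In the retina the pathway is best known for cones, where a Thrb product and Rxrg set the pattern of cone opsins, and Hr and Klf9 are direct target genes in brain.

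Abca4 was at 0.349% to 0.958% of the control mean in replicates 1 and 2 of both Abca4Ko groups, but replicate 3 held 23.5% in rod TRAP and 21.3% in retina. The main differences that rest on it are also given without it. The scaled counts that the authors deposited sum to 17096515 to 17097707 in rod TRAP and 17860761 to 17862326 in retina. These totals were set by scaling and do not show the read depth. The rod marker genes summed to 1437773 to 2147517 scaled counts in retina and 2906668 to 3250568 in rod TRAP, while Müller glia markers summed to 53766 to 88822 and 1635 to 2884. No defining marker of Müller glia was at 0 in rod TRAP, and the cone marker sum in rod TRAP was 33.6% of its retina level in control and 51.9% in Abca4Ko. The retina libraries differed in lens and retinal pigment epithelium (RPE) RNA. The lens markers summed to 117749 in control retina replicate 1 and to 216 and 481 in the other two control replicates. In Abca4Ko retina they summed to 126, 30684 and 45101. In bulk RNA, fewer cells of a type and less RNA per cell cannot be told apart.

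**Figure D1:**
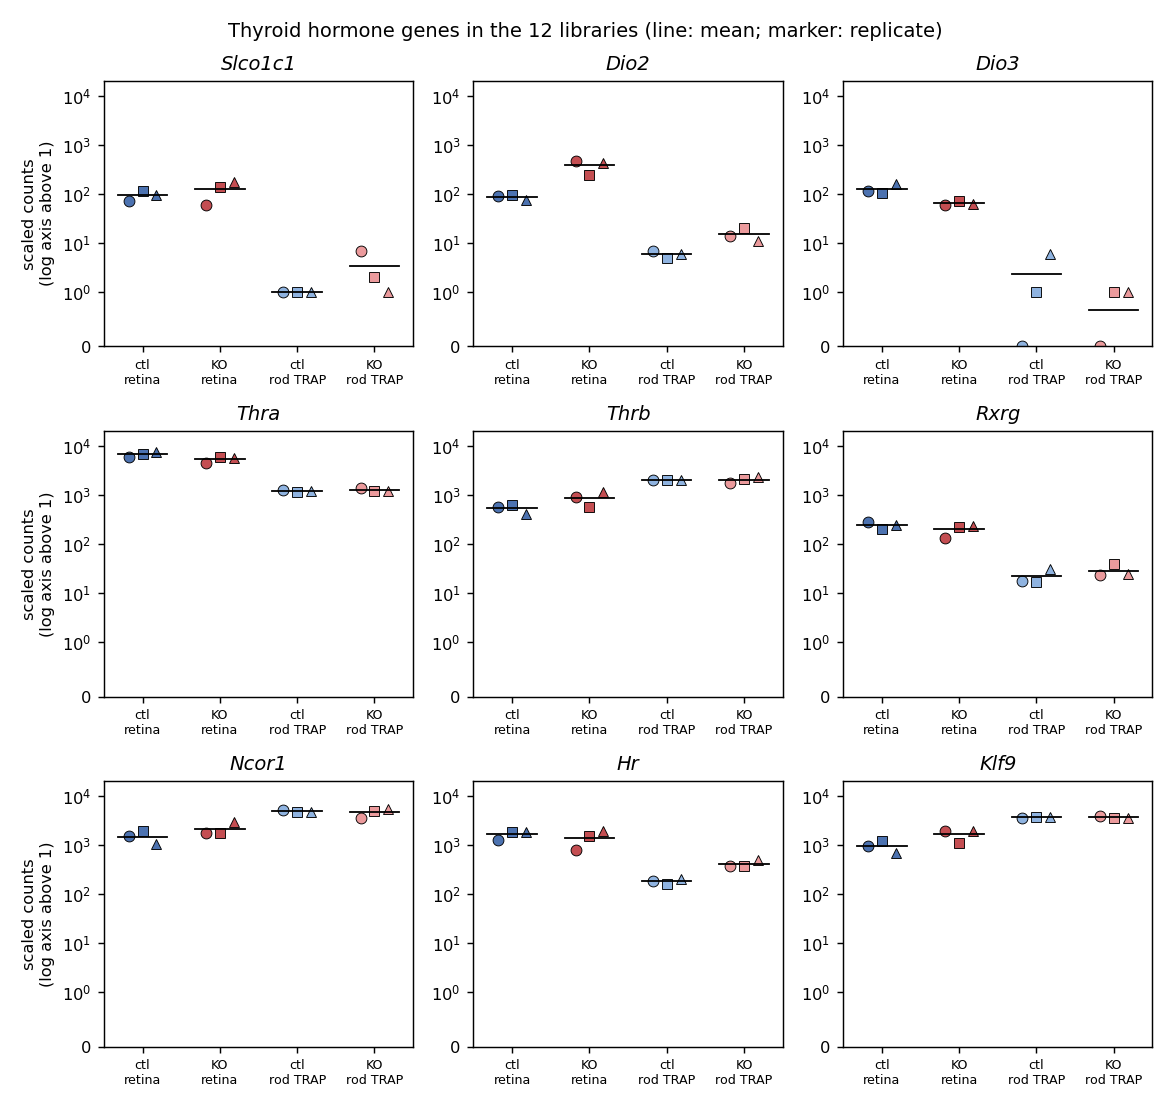
Scaled counts of the 9 genes in each of the 12 libraries, on an axis that is linear from 0 to 1 and logarithmic above. Circles, squares and triangles are replicates 1, 2 and 3, lines are group means, and ctl and KO stand for control and Abca4Ko. Dio2 lay at 74 to 93 in control retina and 246 to 471 in Abca4Ko retina.

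The RefSeq promoter table (GRCm38.p6, 250 bases before to 50 after each gene start) holds 7 of the 9 genes, with 10 promoters. Hr and Thra are not in it. The promoters of Dio2 and Dio3 are shown because these genes encode opposing enzymes and their knockout retina values lay on opposite sides of control. The upstream promoter of Thrb is shown because its RNA was higher in rod TRAP than in retina. They lie on chromosome 12 for Dio2 (chr12:90738989-90739288, minus strand) and Dio3 (chr12:110278980-110279279, plus strand) and on chromosome 14 for Thrb (chr14:17660710-17661009, plus strand). Capitals mark matches on either strand to the cAMP response element TGACGTCA, the thyroid hormone receptor hexamer AGGTCA, the CRX-type core TAATCC and the E-box CACGTG.

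Dio2: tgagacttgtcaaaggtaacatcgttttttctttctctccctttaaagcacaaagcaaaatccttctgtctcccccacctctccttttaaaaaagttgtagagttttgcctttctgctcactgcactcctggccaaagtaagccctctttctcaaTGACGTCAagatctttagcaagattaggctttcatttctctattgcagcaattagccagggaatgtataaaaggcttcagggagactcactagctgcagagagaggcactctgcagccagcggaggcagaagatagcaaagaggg

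Dio3: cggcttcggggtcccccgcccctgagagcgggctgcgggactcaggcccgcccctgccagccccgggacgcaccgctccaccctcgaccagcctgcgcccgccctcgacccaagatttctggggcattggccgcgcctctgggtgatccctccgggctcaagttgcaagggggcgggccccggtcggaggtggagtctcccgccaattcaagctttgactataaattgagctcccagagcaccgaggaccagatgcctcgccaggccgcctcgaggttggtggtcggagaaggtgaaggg

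Thrb: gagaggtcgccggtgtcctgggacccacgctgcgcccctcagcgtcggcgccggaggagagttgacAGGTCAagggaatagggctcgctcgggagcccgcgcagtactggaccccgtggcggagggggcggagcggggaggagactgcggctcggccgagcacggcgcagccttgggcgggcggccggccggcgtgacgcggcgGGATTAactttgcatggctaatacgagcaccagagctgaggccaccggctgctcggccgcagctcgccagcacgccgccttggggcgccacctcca

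The Dio2 promoter held the palindromic cAMP response element, which starts 95 bases upstream of the gene start. Of all 32851 promoters in the table, 1.79% held these letters. The Dio3 promoter held none of the 4 motifs and was 69.0% G or C, against 44.7% for Dio2 and a median of 52.7% over all promoters. The upstream Thrb promoter held AGGTCA 184 bases upstream of its start, a match found in 16.3% of promoters. It also held the CRX-type core on the other strand, as GGATTA, 46 bases upstream. That core was found in 7.06% of promoters and the E-box in 7.15%, and no matches overlapped. A direct repeat of AGGTCA with 4 bases between, the classical thyroid hormone response element, was found in 5 promoters of the table, or 0.0152%. None of the 10 promoters of the 7 genes held it, and Hr and Thra could not be searched. These are descriptions of letters in a window and were not tested as binding sites.

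All 9 genes were detected in whole retina, and they separated into those whose RNA was enriched on rod ribosomes and those that were depleted there. Thrb, Ncor1 and Klf9 were higher in rod TRAP than in retina in both genotypes. Thra and Rxrg were lower in both. These 5 genes had at least 10 scaled counts in every library and no part in the choice, and in control mice 3 of them were called higher and 2 lower in rod TRAP. Of 16286 genes tested there, 36.1% were called higher and 39.3% lower, so a call as such is common in this comparison. It sets RNA on pulled-down ribosomes against lysate RNA, so cell type and binding to ribosomes cannot be told apart in it. In Abca4Ko mice, too, 3 of the 5 were called higher and 2 lower, against 29.5% and 34.3% of 16036 genes. Calls are at a limma adjusted p under 0.05, and log2 values compare CPM (scaled counts per 1e+06 of the library total) plus 0.5 after TMM rescaling, a correction for differences in RNA composition. With the authors' scaling alone the median of all genes of control mice shifted from -0.05 to -0.62, and that of Abca4Ko mice from -0.02 to -0.49. The split of called genes then moved from 5873 higher and 6398 lower to 3415 and 9549 in control, and from 4731 and 5499 to 2282 and 7814 in Abca4Ko. The directions and calls of the 5 genes held in every alternative, and without both libraries of Abca4Ko replicate 3 the Abca4Ko log2 differences were 1.75 for Thrb, 1.61 for Ncor1, 1.71 for Klf9, -1.61 for Thra and -1.93 for Rxrg.

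Slco1c1, which encodes the T4 transporter OATP1C1 known from brain vessels and astrocytes, was a retina transcript with almost no RNA on rod ribosomes. Control retina had 71, 116 and 96 scaled counts, and control rod TRAP had 1 in each library. Abca4Ko retina had 58, 141 and 173, and Abca4Ko rod TRAP had 7, 2 and 1. The lowest retina library, Abca4Ko replicate 1, lay far above the highest rod TRAP library. As Slco1c1 passed the filter on low values only through retina, the ratio of summed scaled counts per total is given in place of a test. It was 90.3 in control (95% exact interval 30.6 to 440.0) and 35.6 in Abca4Ko (19.1 to 74.9), which overlap. These ratios have no TMM rescaling, and the intervals treat scaled counts as reads and cover counting error only. The vascular markers summed to 2410 in Abca4Ko retina replicate 1, against 5257 and 5940 in the other 2 Abca4Ko retina libraries. In control retina they summed to 2782, 4780 and 3257. Over both genotypes together, the order of the retina libraries by this sum was the same as by Slco1c1. The part of vascular RNA in the Slco1c1 values was not tested.

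Dio2 was low in control retina, at 90, 93 and 74 scaled counts, and higher in Abca4Ko retina, at 471, 246 and 435. The lowest knockout library, replicate 2, was above the highest control library, a separation that 10.6% of all genes tested had. In rod TRAP, Dio2 had 7, 5 and 6 scaled counts in control. The Abca4Ko rod TRAP libraries had 14, 20 and 11, so that its RNA lay mostly outside the rod fraction in both genotypes. In Abca4Ko mice, where it passed the filter in both fractions, the log2 difference of rod TRAP from retina was -3.55 (SE 0.304). No test is given, since the retina values chose the gene. In control mice the ratio of retina to rod TRAP in summed scaled counts per total, without TMM rescaling, was 13.7 (95% exact interval 8.48 to 23.4). After TMM rescaling of all libraries together, the rod TRAP level was 10.7% of the retina level in control and 5.83% in Abca4Ko. In single replicate numbers it was 8.66% to 12.1% and 4.04% to 12.6%. The ratio of 13.7 and the 10.7% thus rest on different scalings.

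Dio3, encoding the inactivating enzyme, was also found in retina with almost none on rod ribosomes, and it ran opposite to Dio2 between genotypes. Control retina had 113, 106 and 157 scaled counts and Abca4Ko retina had 60, 73 and 63. All knockout libraries were thus below all control libraries, as in 9.18% of all genes tested. The rod TRAP libraries had 0, 1 and 6 in control, and those of Abca4Ko had 0, 1 and 1. The ratio of retina to rod TRAP, again without TMM rescaling, was 51.4 in control (95% exact interval 24.7 to 129.0) and 93.8 in Abca4Ko (25.6 to 780.0). The noncoding Dio3os, transcribed from the opposite strand beside Dio3, had 70, 79 and 124 scaled counts in control retina and 50, 66 and 44 in Abca4Ko retina. It was added after its values were seen, so nothing is read from them. The annotation used here (GENCODE M21) gives Dio3 no shared exonic base with another gene.

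**Figure D2:**
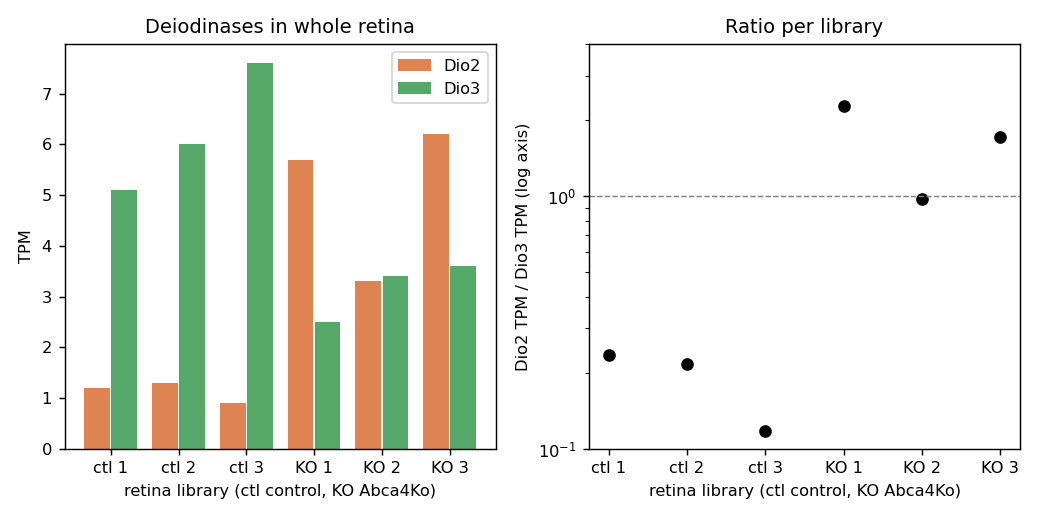
TPM of Dio2 and Dio3 in the 6 retina libraries (left, bars from 0) and the ratio of their TPM values in each library (right, log axis, dashed line at 1). The ratio was 0.118 to 0.235 in control retina and 0.971 to 2.28 in Abca4Ko retina.

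Per length, the balance of the deiodinase transcripts differed between the genotypes in every library. Control retina had 1.2, 1.3 and 0.9 TPM of Dio2 and 5.1, 6.0 and 7.6 TPM of Dio3. Abca4Ko retina had 5.7, 3.3 and 6.2 TPM of Dio2 and 2.5, 3.4 and 3.6 TPM of Dio3. The ratio of Dio2 to Dio3 was 0.235, 0.217 and 0.118 in control retina and 2.28, 0.971 and 1.72 in Abca4Ko retina. The groups did not overlap, and Abca4Ko replicate 2 was the library nearest to control. The rule chose Dio2 on this comparison, so the ratio carries no test.

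Thra, which encodes the receptor TRα and, by splicing, a form that does not bind hormone, had the most RNA per length of the 9 genes in retina. Control retina had 5845, 6862 and 7603 scaled counts, and control rod TRAP had 1292, 1139 and 1220. Abca4Ko retina had 4394, 6006 and 5701, and Abca4Ko rod TRAP had 1406, 1228 and 1215. Every rod TRAP library lay below every retina library. The log2 difference was -1.77 in control (SE 0.128, limma adjusted p = 7.05e-08) and -1.48 in Abca4Ko (SE 0.146, limma adjusted p = 7.85e-06). The 3′ end of Thra shares 263 of its 4614 exonic bases with Nr1d1 on the opposite strand. The cDNA kit does not mark strand as far as the sources used here say, and Nr1d1 was itself abundant, at 3802 to 5573 scaled counts in control retina and 1961 to 2102 in control rod TRAP, so reads in the overlap cannot be told apart.

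Thrb, which encodes TRβ, went the other way and was enriched on rod ribosomes. Control rod TRAP had 1982, 2039 and 1996 scaled counts, and control retina had 561, 625 and 417. Abca4Ko rod TRAP had 1738, 2105 and 2320, and Abca4Ko retina had 926, 556 and 1126. The fractions did not overlap in either genotype. The log2 difference was 2.59 in control (SE 0.140, limma adjusted p = 5.74e-09) and 1.85 in Abca4Ko (SE 0.237, limma adjusted p = 5.28e-05). Counts per symbol cannot separate the TRβ1 transcript from the cone-associated TRβ2 transcript. The cone opsin genes Opn1sw and Opn1mw, by contrast, were lower in rod TRAP in control, by -1.92 (SE 0.135, limma adjusted p = 5.58e-08) and -1.83 (SE 0.164, limma adjusted p = 4.81e-07) on the log2 scale.

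Per length, the receptor genes stood in different proportions in the fractions. In control retina Thra had 325 ± 47.6 TPM (SD, n = 3) and Thrb had 10.8 ± 3.51. In control rod TRAP Thra had 77.8 ± 7.86 TPM and Thrb had 54.7 ± 3.66. By TPM, Thra was above Thrb in every library of both fractions. Abca4Ko gave a Thra level of 254 ± 56.1 TPM in retina, with Thrb at 17.7, 9.1 and 27.2, and 77.1 ± 2.34 against 48.7 ± 9.56 TPM in rod TRAP.

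Rxrg, the retinoid X receptor gene known from cones, had 281, 207 and 249 scaled counts in control retina and 18, 17 and 31 in control rod TRAP. Abca4Ko retina had 134, 227 and 235, and Abca4Ko rod TRAP had 23, 39 and 24. It was lower in rod TRAP in both genotypes, without overlap. The log2 difference was -2.48 in control (SE 0.230, limma adjusted p = 6.39e-07) and -1.96 in Abca4Ko (SE 0.257, limma adjusted p = 6.28e-05). Rod TRAP held 13.6% of the retina level of Rxrg in control and 22.2% in Abca4Ko. The cone marker sum moved with it, at 33.6% and 51.9%, and its part in the Rxrg values was not tested. Of the other retinoid X receptor genes, Rxrb was lower in control rod TRAP by -0.38 (log2, SE 0.119, limma adjusted p = 0.0111). Rxra had a log2 difference of 0.11 in control (SE 0.111, limma adjusted p = 0.372). In Abca4Ko, Rxrb had -0.06 and was not called. Rxra had 0.38 there and was called higher, a call kept in 4 of 17 alternatives.

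Ncor1, the corepressor that binds unliganded thyroid hormone receptors, had the most RNA per length of the 9 genes in rod TRAP. Control rod TRAP had 5121, 4810 and 4699 scaled counts and control retina had 1514, 1904 and 1065. Abca4Ko rod TRAP had 3649, 5004 and 5401 and Abca4Ko retina had 1790, 1778 and 2952. Every rod TRAP library was above every retina library of its genotype. The log2 difference was 2.43 in control (SE 0.164, limma adjusted p = 3.78e-08) and 1.70 in Abca4Ko (SE 0.198, limma adjusted p = 2.62e-05). The 82 exonic bases that Ncor1 shares with Pigl on the opposite strand are few beside its 12811 exonic bases.

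The target genes split in the same way. Klf9, which encodes a Krüppel-like transcription factor, had 3607, 3805 and 3740 scaled counts in control rod TRAP and 944, 1191 and 704 in control retina. Abca4Ko rod TRAP had 3968, 3583 and 3547 and Abca4Ko retina had 1927, 1122 and 1958. The rod TRAP libraries of both genotypes lay close together and above all retina libraries. The log2 difference was 2.68 in control (SE 0.153, limma adjusted p = 8.92e-09) and 1.76 in Abca4Ko (SE 0.226, limma adjusted p = 5.44e-05).

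Hr, which encodes the nuclear corepressor Hairless, had lower values in rod TRAP than in retina. Control retina had 1263, 1842 and 1865 scaled counts and control rod TRAP had 184, 163 and 207. Abca4Ko retina had 808, 1514 and 1918 and Abca4Ko rod TRAP had 373, 370 and 493. The fractions did not overlap in either genotype. The log2 difference was -2.42 in control (SE 0.164) and -1.11 in Abca4Ko (SE 0.229), with no test, since the rod TRAP values chose the gene.

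**Figure D3:**
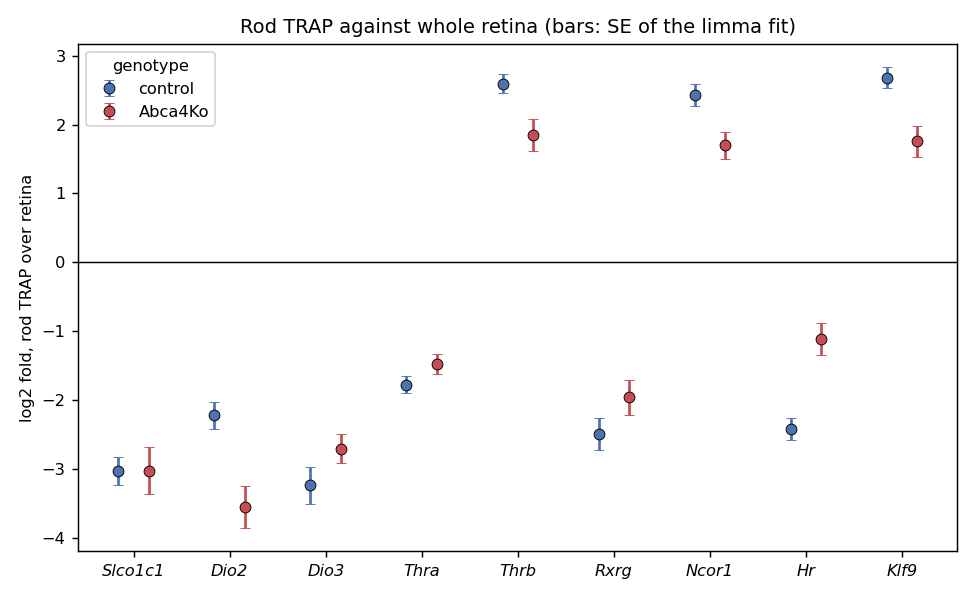
log2 fold difference of rod TRAP over retina for the 9 genes in control (blue) and Abca4Ko (red) mice, with the SE of the limma fit as bars. Thrb, Ncor1 and Klf9 lie above 0 in both genotypes and the other 6 genes below 0. Slco1c1 and Dio3, and Dio2 in control, were near 0 counts in rod TRAP, where the plotted value depends on the added 0.5.

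By TPM, the order of the genes in control rod TRAP was Ncor1 (144 ± 7.99, SD, n = 3), Klf9 (94.4 ± 2.43), Thra (77.8 ± 7.86), Thrb (54.7 ± 3.66), Hr (4.57 ± 1.21) and Rxrg (1.33 ± 0.666), and no neighbours in that order overlapped. Below them Dio3, Dio2 and Slco1c1 were at 0.0 to 0.4 TPM and overlapped. The order of the first 6 genes was the same in Abca4Ko rod TRAP, again without overlap of neighbours. Control retina had Thra first (325 ± 47.6 TPM), well above Ncor1 (36.5 ± 12.3), Hr (33.8 ± 10.3), Klf9 (18.1 ± 5.84), Rxrg (10.9 ± 1.59), Thrb (10.8 ± 3.51) and Dio3 (6.23 ± 1.27), each of which overlapped its neighbour. Slco1c1 (3.17 ± 0.751 TPM) and Dio2 (1.13 ± 0.208 TPM) came last and were separate. In Abca4Ko retina only Thra stood clear of the gene below it, and Dio2 (5.07 ± 1.55 TPM) overlapped both Rxrg and Slco1c1.

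A wider list of 50 pathway genes in 6 classes, which includes the 9, showed how the classes lay between rods and retina. The list was drawn up with earlier results of these data known, so its counts are descriptions. Of its genes 49 were tested in control, and 39 had at least 10 scaled counts in all 6 libraries. Of the 49, 20 were called higher and 25 lower in rod TRAP, with a median log2 difference of -0.33, against -0.05 over all genes tested. Of the 39, which leave out genes near 0 in rod TRAP, 20 were higher and 15 lower. Their median was 0.41, and the value over all genes has no such cut. The following counts leave out the 9 genes. In control, 36.1% of all genes tested were called higher and 39.3% lower, or 3415 and 9549 of 16286 with the authors' scaling. In Abca4Ko the shares were 29.5% and 34.3%, or 2282 and 7814 of 16036 genes with the authors' scaling. Where a class count is near these shares, nothing is read from it.

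The coactivators were mostly higher in rod TRAP. Of 8, 7 were called higher in control rod TRAP and none lower, with a median of 1.51, and with the authors' scaling alone 5 were higher and 1 (Carm1) lower. Ppargc1a, the PGC-1α coactivator of mitochondrial genes, had a log2 difference of 3.11 (SE 0.142, limma adjusted p = 1.59e-09), with 1638, 1766 and 1685 scaled counts in control rod TRAP and 329, 360 and 244 in control retina. Ncoa2 was higher by 2.69 (SE 0.156) and Ncoa1 by 2.05 (SE 0.164), both steroid receptor coactivators. In Abca4Ko mice 6 of the 8 were higher and none was lower, or 4 and 1 with the authors' scaling.

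The corepressor class was mixed, and its direction depended on the scaling. Besides Ncor1, 3 of 5 genes were higher in control rod TRAP and 2 were lower, but with the authors' scaling 1 was higher and 2 were lower. Tbl1x, an exchange factor of the NCoR complex, was higher by 1.19 (SE 0.209, limma adjusted p = 0.000199). Tbl1xr1 was higher by 0.72 (SE 0.175, limma adjusted p = 0.00231), a call that was lost with the authors' scaling and on TPM. In Abca4Ko, Tbl1x was the 1 gene of the 5 called higher, and 2 were lower. With the authors' scaling none was higher there and 2 were lower. Tbl1xr1 had a log2 difference of 0.12 in Abca4Ko and was not called.

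No transport or binding gene was called higher in control rod TRAP. Of the 5 with at least 10 scaled counts in all 6 libraries, 3 were called lower in control rod TRAP and none higher. With the authors' scaling all 5 were lower. In Abca4Ko, 2 of these 5 were lower and none higher, or 4 and none with the authors' scaling. Crym, a cytosolic T3-binding protein, had 783, 1100 and 1310 scaled counts in control retina and 13, 5 and 7 in control rod TRAP. It passed the filter only through retina and is given without a test. Ttr, the T4 carrier made by RPE in the eye, was lower by -3.68 (SE 0.268, limma adjusted p = 7.61e-08), while the RPE marker sum ranged from 3336 to 8984 scaled counts in control retina and from 68 to 198 in control rod TRAP, and its part in the Ttr value was not tested.

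Among genes of deiodinase turnover and related enzymes, 6 had at least 10 scaled counts in all 6 libraries. Of these, 4 were higher and 2 lower in control rod TRAP, or 3 and 2 with the authors' scaling. Usp33, a deubiquitinase that acts on type 2 deiodinase, was higher by 2.76 (SE 0.196, limma adjusted p = 6.15e-08), and Wsb1, which recruits the ligase that marks the enzyme, by 1.31 (SE 0.176, limma adjusted p = 1.97e-05). In Abca4Ko, 5 genes of this class were at that level, with 3 higher and none lower, or 1 and 1 with the authors' scaling. Iyd, the iodotyrosine deiodinase, was near 0 in rod TRAP, with a mean of 0.0485 CPM in control rod TRAP. Dio1 was the 1 list gene that was not tested in control. Of 7 target genes with at least 10 scaled counts in all 6 libraries of control, 3 were higher and 4 lower, or 2 and 4 with the authors' scaling. In Abca4Ko the counts were 2 and 4, or 1 and 4 with the authors' scaling. Reln, an extracellular glycoprotein, had a log2 difference of -5.13 in control (SE 0.158, limma adjusted p = 2.55e-10). Thrsp, with 413, 438 and 564 scaled counts in control retina and 6, 1 and 5 in control rod TRAP, and Rasd2, with 449, 570 and 524 and then 9, 8 and 11, passed the filter only through retina. Many of these targets were defined in brain or liver, and their rod level says nothing here of hormone action.

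**Figure D4:**
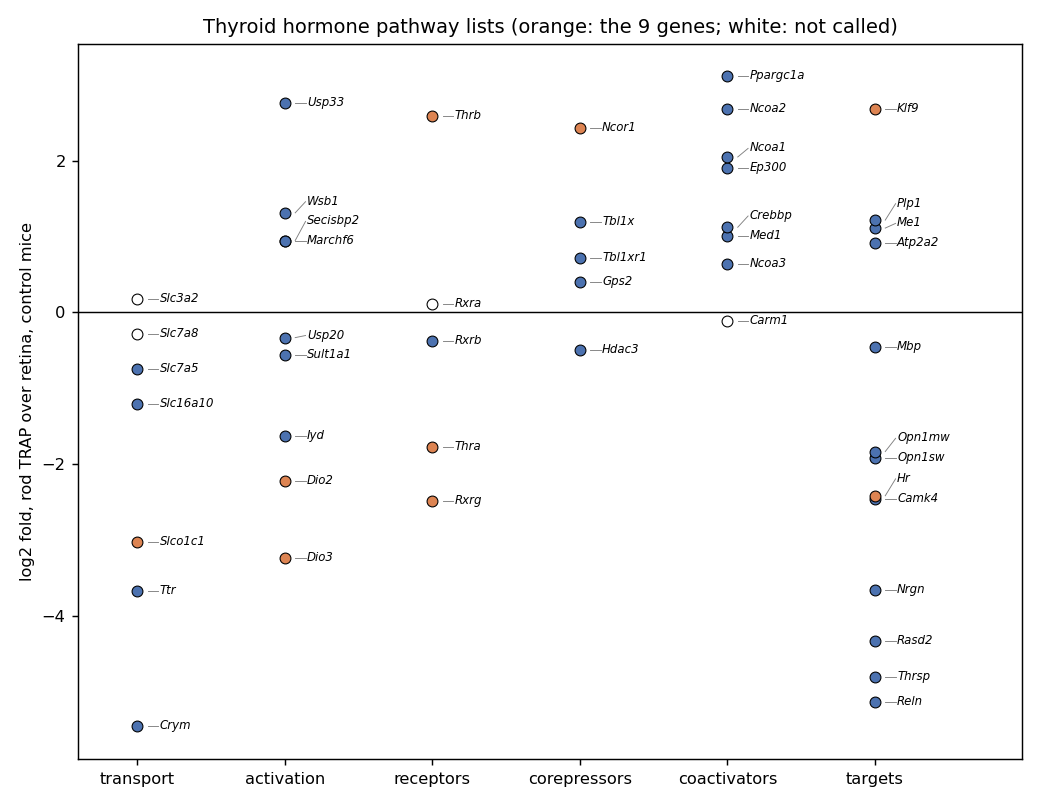
log2 fold difference of rod TRAP over retina in control mice for tested pathway genes, by class. Orange points are the 9 genes, blue points other genes called by limma and white points genes not called. The coactivators lie above 0 except Carm1, and the transport genes lie below 0 except Slc3a2.

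Between genotypes in whole retina, Dio2 was 1 of the 9 genes called higher in Abca4Ko (log2 difference 2.02, SE 0.288), where 0.0943% of 16964 genes were called higher. It had been chosen on this comparison, and nothing is read from the call. It was past the threshold in 5 of 14 alternatives, among them not the fits without Abca4Ko retina replicate 3 (log2 difference 1.95), without Abca4Ko retina replicate 1 (1.77) or without any 1 control library (1.94 to 2.07). The difference kept its sign in all 14. Dio2 was the 1 gene whose 3 knockout libraries all lay above the control libraries, as 10.6% of genes did. Dio3 (-0.83, SE 0.236) and Thra (-0.33, SE 0.165) had all knockout libraries below all control libraries, as 9.18% of genes did. The other genes overlapped, with log2 differences of 0.81 for Klf9 (SE 0.268), 0.67 for Thrb (SE 0.271), 0.55 for Ncor1 (SE 0.235), 0.28 for Slco1c1 (SE 0.324), -0.28 for Hr (SE 0.256) and -0.31 for Rxrg (SE 0.233). Without Abca4Ko retina replicate 3 the values were -0.76 for Dio3, -0.33 for Thra, 0.72 for Klf9, 0.50 for Thrb, 0.35 for Ncor1, 0.03 for Slco1c1, -0.50 for Hr and -0.40 for Rxrg.

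The retina libraries differed within a genotype in a pattern that several of the genes shared. Klf9, Thrb and Ncor1, the genes higher in rod TRAP, were each lowest in control replicate 3 among the control retina libraries, at 704, 417 and 1065 scaled counts. They were highest in Abca4Ko replicate 3 among all retina libraries, at 1958, 1126 and 2952. The pattern was not particular to these genes. Other genes of the wider list, such as Marchf6, Atp2a2 and Ep300, had it too, while some, such as Usp20, did not. The rod marker sum was 2060672 in control replicate 3 and 1437773 in Abca4Ko replicate 3, and its part in this pattern was not tested. Without control retina replicate 3, the log2 differences of rod TRAP from retina in control were 2.28 for Klf9, 2.22 for Thrb and 2.00 for Ncor1. Hr was lowest in Abca4Ko replicate 1, at 808 scaled counts, where Slco1c1 and Rxrg were also at their lowest. That library also had the lowest sums of bipolar markers (7144), amacrine markers (4017) and ganglion cell markers (9560) of the 6, and their part in these values was not tested. Without it the log2 difference of Hr was -0.01 in place of -0.28. For Dio2, the Müller glia marker sums were 59804, 87233 and 85687 in Abca4Ko retina and 53766, 88822 and 81936 in control retina, and astrocyte marker sums were 781 to 1100 and 886 to 1412. The part of glial RNA in the Dio2 values was not tested.

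In rod TRAP, Hr was 1 of 7 genes tested that was called higher in Abca4Ko (log2 difference 1.12, SE 0.138), where 0.725% of 13104 genes were called higher. It had been chosen on this comparison, and nothing is read from the call. The call was lost on TPM, at log2 differences of 0.91 and 1.04 with the larger and the smaller addend. Its TPM was 7.6, 8.4 and 12.4 in Abca4Ko and 4.7, 3.3 and 5.7 in control rod TRAP, again without overlap. Without Abca4Ko rod TRAP replicate 3, the highest library and the one with residual Abca4, the log2 difference was 1.01. Of the 7 genes tested, Hr and Dio2 had all knockout libraries above all control libraries, as 8.59% of genes had. None had all below, as 8.95% of genes had. Hr was chosen on these values. Dio2 passed the filter only through Abca4Ko, at 11 to 20 scaled counts, so nothing is read from either separation. Slco1c1 and Dio3 were not tested in rod TRAP, where no group reached the filter. The remaining 5 genes had log2 differences of 0.29 for Rxrg (SE 0.247), 0.08 for Thra (SE 0.106), 0.03 for Thrb (SE 0.0887), 0.00 for Klf9 (SE 0.0927) and -0.07 for Ncor1 (SE 0.110). Among them, without Rxrg, the direction changed with the alternative. The call for Hr in rod TRAP and not in retina was not a test of the difference between fractions.

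**Figure D5:**
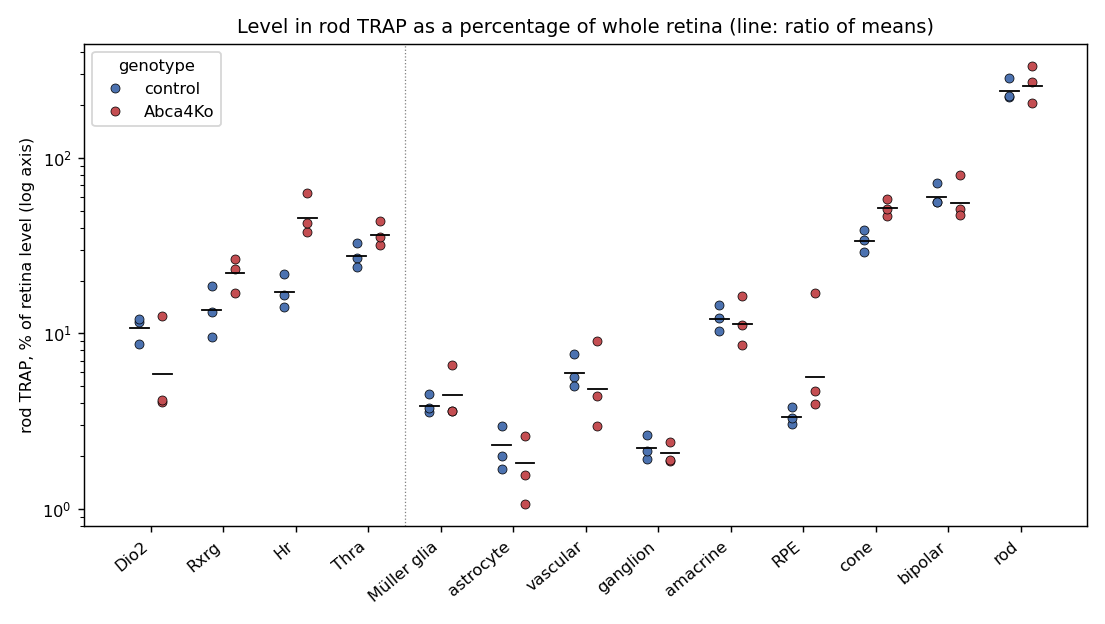
Level in rod TRAP as a percentage of the retina level of the same genotype and replicate number (points; log axis), with the ratio of group means as a line, for 4 genes depleted in rod TRAP (left of the dotted line) and for summed marker lists. Hr lies at 14.2% to 21.7% in control and 37.9% to 62.8% in Abca4Ko, and the rod TRAP values in this percentage chose the gene. The cone list lies at 29.1% to 38.7% in control and 46.8% to 57.9% in Abca4Ko.

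The level of Hr in rod TRAP was 17.1% of its retina level in control and 45.3% in Abca4Ko, after rescaling all 12 libraries together. By the same measure, Müller glia markers were at 3.87% and 4.48%, ganglion cell markers at 2.23% and 2.08%, amacrine markers at 12.1% and 11.3%, bipolar markers at 60.1% and 55.6%, and vascular markers at 5.98% and 4.79%. Cone markers were at 33.6% and 51.9%, with retina sums of 29902 to 37080 scaled counts in control and 22886 to 31025 in Abca4Ko. RPE markers were at 3.35% and 5.67%. By replicate number the RPE values were 3.03%, 3.81% and 3.29% in control and 17.0%, 3.94% and 4.67% in Abca4Ko. Abca4Ko retina replicate 1 held 887 RPE marker counts, against 5190 and 3037 in replicates 2 and 3. The cone opsin genes had log2 differences between genotypes in rod TRAP of 0.46 for Opn1sw (SE 0.114) and 0.54 for Opn1mw (SE 0.118), and the part of cone RNA in the Hr value was not tested. The genes higher in rod TRAP stood at 576% (Thrb), 604% (Klf9) and 502% (Ncor1) in control and 357%, 333% and 330% in Abca4Ko. The summed rod markers stood at 241% and 257%.

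Of the wider list, none of the 40 other genes tested in retina was called between genotypes by limma. At an unadjusted p under 0.05 there were 6, where 11.9% of all genes tested were, and the median log2 difference was -0.04, against -0.01 over all genes. In rod TRAP none of 33 others was called, 7 had an unadjusted p under 0.05, where 10.4% of all genes had, and the median was -0.03, against 0.00 over all genes. Of the 40 in retina, 7 had all knockout libraries below all control libraries and 1 had all above, where 9.18% and 10.6% of all genes did. Among the 7 were Rxra and Rxrb, at log2 differences of -0.30 (SE 0.146) and -0.32 (SE 0.152).

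The genes most like Dio2 over the 6 retina libraries were Gm7993, Tcf24, Gm6916, Egr1 and 2900052N01Rik, out of 11772 genes with a mean of at least 5 CPM. Likeness was the root mean square difference of log2 values centred on the control mean, which was 0.472 for Gm7993, 0.481 for Tcf24, 0.495 for Gm6916, 0.503 for Egr1 and 0.528 for 2900052N01Rik. Egr1, an immediate early gene, had 1739, 2745 and 3377 scaled counts in Abca4Ko retina and 787, 830 and 444 in control retina. Its order within the knockout libraries differed from that of Dio2, whose lowest library was replicate 2. The genes most like Hr over the 6 rod TRAP libraries, out of 9341, were closer to it. They were H2aw at 0.0667, Fam210b at 0.131, Slc1a5 at 0.156, H2bu2 at 0.185 and Espn at 0.187. H2aw, a histone gene, had 1037, 951 and 1315 scaled counts in Abca4Ko rod TRAP. In control rod TRAP it had 463, 446 and 598. Like Hr it was highest in Abca4Ko replicate 3, but its likeness to Hr over these libraries selected it, so nothing is read from it. In retina H2aw had 1451, 1145 and 1497 in Abca4Ko and 778, 930 and 879 in control, without overlap, whereas the Hr groups overlapped there.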

How the data were processed

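RNA-seq was analysed from 12 libraries, grouped by their labels into 4 groups of 3. The authors deposited scaled counts, a score made from read counts that gives all libraries of a fraction nearly the same total (spread 0.00697% in rod TRAP and 0.00876% in retina), and TPM values to 1 decimal. The submitters' processing notes name CASAVA 1.8.2, HISAT2, DESeq2, edgeR and GRCm39. As the scaled counts are not raw counts, no count model was used. TMM scaling factors (trimmed mean of M values, trims 0.3 and 0.05) were applied, and log2(CPM + 0.5) was fitted with limma 3.58.1 (trend, robust; R 4.3.3), for genes with at least 10 scaled counts in at least 3 libraries. Tests were two-sided with Benjamini-Hochberg adjusted p over all genes tested. Other steps used Python 3.11.15, pandas 2.3.3 and scipy 1.17.1.

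Each comparison was fitted on its own 6 libraries. The genes, the lists and the tests were chosen with earlier results of these data known. The genes named were the 9, up to 3 called genes with the largest difference in each list, the cone opsins, and the 5 genes most like Dio2 and Hr. Some genes that this rule selects are not reported here. Dio3os, Nr1d1, Rxra and Carm1 were added after their values were seen. Same-numbered rod TRAP and retina libraries deviated together (r of deviations 0.160 to 0.289 in control, 0.228 to 0.469 in Abca4Ko), so the numbers were taken to pair the fractions, which the labels do not state. Abca4Ko rod TRAP replicate 2 correlated slightly better with another number (0.245) than with its own (0.228). Overlaps between genes are from GENCODE M21 (GRCm38). Scripts were tested on simulated data.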

Additional observations from a re-analysis of the deposited data

Results flagged for a closer look

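Rxrg met a rule for genotype differences of opposite sign in the 2 fractions, though the groups overlapped in both. Rod TRAP had 23, 39 and 24 scaled counts in Abca4Ko against 18, 17 and 31 in control. Retina had 134, 227 and 235 in Abca4Ko against 281, 207 and 249 in control. The share of all genes that met the rule was not counted, so nothing is read from it. Every Abca4Ko rod TRAP library was above the control mean and every Abca4Ko retina library was below it, and the genotype difference in rod TRAP minus that in retina was 0.62 on the log2 scale (SE 0.348). This difference is given with no test, since the genes were chosen on genotype values. The cone marker sum was 7883 to 10266 scaled counts in Abca4Ko rod TRAP and 7181 to 8536 in control rod TRAP, and 22886 to 31025 in Abca4Ko retina and 29902 to 37080 in control retina, and its part in the Rxrg values was not tested.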

How the results depend on the processing

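Every fraction difference of the 9 genes kept its direction in each alternative that could be fitted for it, and those of the 5 genes tested kept their call. Genotype differences are descriptions, and of the alternatives 125 of 126 in retina and 87 of 91 in rod TRAP moved by less than the spread between replicates. Counts of genes called over the whole table moved more, and where no reason is given the cause was not tested. Leaving out libraries gave 7864 to 11448 called genes between fractions in control (12271 with all) and 4238 to 9793 in Abca4Ko (10230 with all). Fits without a retina library test fewer genes by construction. In Abca4Ko the count was 6111 without retina replicate 2, and it was 4238 and 5541 without both libraries of replicate 2 and of replicate 3. In control it was 7864 and 8028 without both libraries of replicate 1 and of replicate 2. Leaving out both libraries of a number was chosen after seeing the data. Between genotypes in retina, 19 genes were called, against 12 with the authors' scaling, 33 with no filter, 7 with at least 50 scaled counts, 38 and 37 on log2(TPM + 1) and log2(TPM + 0.1), and 63 with all 12 libraries in 1 fit, with 1 to 16 when 1 library was left out (1 without Abca4Ko replicate 1, 4 without Abca4Ko replicate 2 or control replicate 3). In rod TRAP 147 were called, against 47 and 44 on the TPM scales and 96 with all 12 libraries, with 28 to 598 when 1 library was left out (598 without Abca4Ko replicate 1, 36, 28 and 33 without control replicate 1, 2 and 3).

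With the replicate number as a block, 33 genes were called between genotypes in retina and 146 in rod TRAP, where the numbers do not pair the samples (r from -0.391 to 0.0175), and no Abca4Ko library correlated best with the control library of its own number. Between fractions, where the numbers pair, the block gave 12344 genes in control and 11393 in Abca4Ko, and it changed no call on the genes tested.

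The scaled counts do not show read depth. Genes at 0 to 10 scaled counts in rod TRAP cannot be compared there between genotypes, and counts per symbol do not separate transcripts of Thra or Thrb.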
